A study of Homo sapiens with 9 samples.

Results

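CD82 and 9 further tetraspanins (CD9, CD81, CD151, TSPAN1, TSPAN3, TSPAN4, TSPAN8, TSPAN15 and TSPAN31) were followed through 9 RNA sequencing libraries of human hepatocellular carcinoma (HCC) cells. The 10 genes were chosen by name from the 20030 genes of the deposited tables. The choice was made with earlier results of these libraries known, so the levels of these genes and their differences between lines are given as a description, without p-values. Calls among them are counted only beside the share of all genes called, and support nothing. MHCC97L is an established HCC cell line, and its 3 libraries came from wild-type cells that had received no drug. MHCC97L-Src was raised from it by growth in rising concentrations of saracatinib, an inhibitor of the kinase Src, until it was stably resistant to 4 μmol/L. MHCC97L-Oxa was raised from MHCC97L by continual treatment with oxaliplatin, a platinum drug, and was stably resistant to 2 μmol/L. The labels give oxaliplatin as the treatment of the MHCC97L-Oxa libraries and saracatinib as that of the MHCC97L-Src libraries. Each line had 3 libraries. Resistance to each drug was represented by 1 derived line, so the effect of the drug and what is particular to that line cannot be told apart.

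Tetraspanins are small proteins that cross the cell membrane and gather integrins, immunoglobulin superfamily proteins, proteases and receptors into membrane domains. CD82, also called KAI1, is known as a suppressor of metastasis that restrains integrin and receptor signaling and cell movement. CD151 binds laminin-binding integrins, CD9 and CD81 bind the immunoglobulin superfamily proteins IGSF8 and PTGFRN, CD63 resides in late endosomes and exosomes, and TSPAN15 directs the protease ADAM10.

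In these libraries CD82 stood far lower in MHCC97L-Src than in both other lines, by 6.18-fold against MHCC97L and by 7.67-fold against MHCC97L-Oxa. TSPAN1 went the other way, and was 3.6-fold higher in MHCC97L-Src and 2.8-fold higher in MHCC97L-Oxa than in MHCC97L. The remaining members with enough counts differed by less than 2-fold between lines.

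The sequences upstream of these 2 genes are shown because they had the largest differences between lines of the listed members. Each is a 178-base window that starts 250 bases before the gene's first base in RefSeq on the + strand of GRCh38.p14, cut before the next annotated CD82 exon so that it holds no exon. It lies at chr11:44565413-44565590 for CD82 and at chr1:46174837-46175014 for TSPAN1. The CD82 window lies in an intron of 1 annotated transcript that starts farther upstream, and the TSPAN1 window lies before the annotated start of its gene. Capitals mark each GGGCGG, a motif known as a GC box, searched for on both strands.

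CD82: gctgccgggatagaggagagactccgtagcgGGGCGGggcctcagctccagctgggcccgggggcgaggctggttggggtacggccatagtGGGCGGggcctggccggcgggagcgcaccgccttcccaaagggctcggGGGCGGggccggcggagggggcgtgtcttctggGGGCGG
TSPAN1: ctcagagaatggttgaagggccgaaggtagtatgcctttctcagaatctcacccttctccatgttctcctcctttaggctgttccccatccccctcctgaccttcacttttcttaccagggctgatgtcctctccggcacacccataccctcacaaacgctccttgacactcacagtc

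The CD82 window had a GC content of 77.0% with 18 CpG dinucleotides and 4 matches to GGGCGG. The TSPAN1 window had a GC content of 52.8% with 3 CpG dinucleotides and no match. Of 35116 windows of this length in the RefSeq table, 30.9% held GGGCGG and 2.57% held 4 or more matches. TGANTCA, the AP-1 motif, stood in 4.64% of the windows and TATAAA in 7.09%, and neither window held one of these motifs. A match is a description of the letters only. RefSeq promoter entries were found for 7 of the 10 members and not for CD81, CD151 and TSPAN3.

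Library totals of gene counts ran from 16970486 to 18209213, so 3 counts, taken as the smallest detectable amount, corresponded to 0.165 to 0.177 CPM, the usual unit for counts scaled to the library total. This floor covers counting error only. One wild-type library stood apart. Across genes, the deviation of MHCC97L library 1 from the mean of the libraries had a Spearman correlation of -0.783 with GC content. It was 0.319 and -0.247 in MHCC97L libraries 2 and 3, 0.196 to 0.324 in MHCC97L-Oxa and 0.199 to 0.703 in MHCC97L-Src. The resistant lines thus also differed in this respect. Differences of single genes against MHCC97L are therefore also given with a correction for GC content and length, except for genes near CD82 and genes of similar pattern. Of 9 hepatocyte and liver cancer markers, 5 were at or under the floor in all libraries, and ALB, AFP, APOB and TTR were at 0. All 9 together summed to only 0.206 to 0.583 CPM in MHCC97L, 1.11 to 2.01 CPM in MHCC97L-Src and 1.28 to 2.16 CPM in MHCC97L-Oxa. The simple epithelial markers, led by the keratins KRT8 and KRT18, summed to 2900 CPM or more in every library, while EPCAM was at or under the floor. The 5 blood markers summed to 46.0 to 81.1 CPM in MHCC97L, 75.2 to 107 CPM in MHCC97L-Src and 147 to 151 CPM in MHCC97L-Oxa, with PTPRC and CD3E, which define blood cells and T cells, at 0 throughout. The part of these markers in the results was not tested.

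GENCODE release 29 annotates CD82 at 44564427 to 44620363 of chromosome 11 (GRCh38, + strand), and positions below are from the same source. Its counts were 514, 754 and 783 in the MHCC97L libraries, 862, 797 and 895 in MHCC97L-Oxa, and 104, 105 and 99 in MHCC97L-Src. After normalization for library size and composition by the TMM method, this gave 26.5, 44.0 and 43.6 CPM in MHCC97L, 47.7, 43.1 and 49.9 CPM in MHCC97L-Oxa and 6.15, 6.85 and 5.43 CPM in MHCC97L-Src. The 3 MHCC97L-Src libraries were below all others and close together, while the MHCC97L and MHCC97L-Oxa libraries overlapped. Mean levels were 38.0 ± 9.99 CPM (SD, n = 3) in MHCC97L, 46.9 ± 3.47 CPM in MHCC97L-Oxa and 6.14 ± 0.708 CPM in MHCC97L-Src. In bulk RNA, fewer cells with CD82 RNA and less of it per cell cannot be told apart. CD82 shares 280 exon bases, 6.91% of its exon bases, with AC010768.1 on the opposite strand, which is not among the genes counted. Whether strand was used in counting is not given, so the counts of CD82 are uncertain to that extent. Among the marker lists, the 4 endothelial markers summed to 12.2 to 15.1 CPM in MHCC97L-Src, 2.23 to 2.68 CPM in MHCC97L and 1.33 to 1.79 CPM in MHCC97L-Oxa. Of the 4, KDR was at 0 throughout. It was the only 1 at or under the floor in all MHCC97L-Src libraries, while 2 were so in MHCC97L and 2 in MHCC97L-Oxa. The 5 fibroblast markers summed to 93.0 to 97.7 CPM in MHCC97L-Src, 140 to 196 CPM in MHCC97L and 164 to 177 CPM in MHCC97L-Oxa. The part of these markers in the level of CD82 was not tested.

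**Figure D1:**
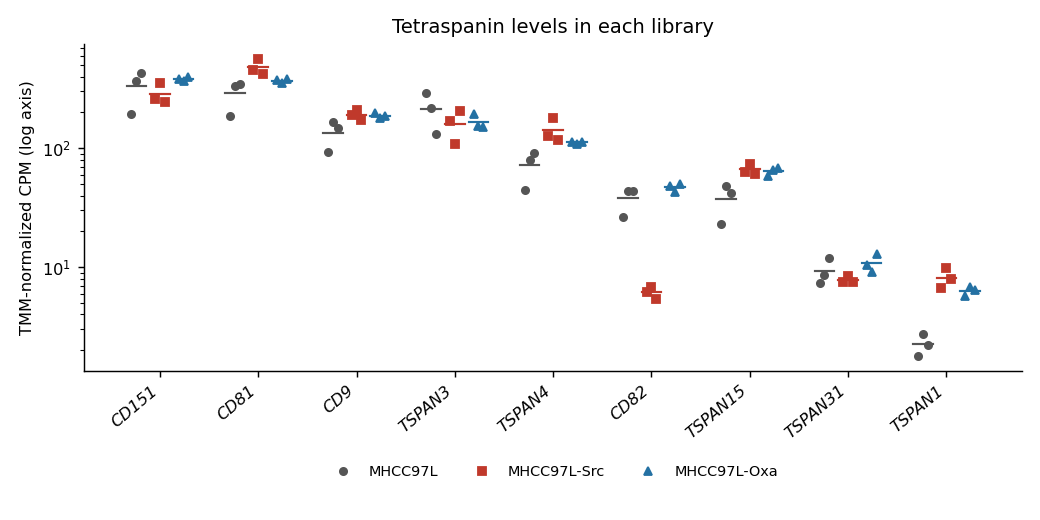
Levels of 9 tetraspanins in TMM-normalized CPM on a log axis, with 1 point per library, symbols for the 3 lines and bars at the mean of 3 libraries. CD82 lies between 5.43 and 6.85 CPM in MHCC97L-Src and between 26.5 and 49.9 CPM in the other lines, and TSPAN1 is lowest in the MHCC97L libraries.

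The log2 fold change of CD82 in MHCC97L-Src was -2.63 (SE 0.37) against MHCC97L, the 202nd from the lowest of 12037 genes tested. With the correction for GC content and length it was -3.04. Against MHCC97L-Oxa it was -2.94 (SE 0.17), or -3.06 with the correction, the fifth from the lowest of 11994 genes. CD82 differed by 0.31 (SE 0.27) between MHCC97L-Oxa and MHCC97L, and by 0.03 with the correction.

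At an adjusted p under 0.05 by edgeR's quasi-likelihood test over all genes, CD82 was the only member of 9 tested that was called in MHCC97L-Src against MHCC97L, where 2.13% of all genes were called. It was also the only member of 9 called against MHCC97L-Oxa, where 4.64% were called. In MHCC97L-Oxa against MHCC97L, where 0.953% of genes were called, edgeR called 0 of the 9 members. At an unadjusted p under 0.05 by edgeR were 5 of the 9 in MHCC97L-Src against MHCC97L, 2 in MHCC97L-Oxa against MHCC97L and 4 between the resistant lines. Of all genes, 3546 of 12037, 2708 of 12064 and 2340 of 11994 were so. DESeq2 called 3, 1 and 1 of the members in these comparisons, beside 2114, 893 and 839 of all genes. Since the members were chosen with these values known, nothing is read from these counts. The CD82 call against MHCC97L was lost on leaving out MHCC97L library 3 (log2 fold change -2.52) or MHCC97L-Src library 1 (-2.60), 2 (-2.68) or 3 (-2.54).

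CD81 and CD9 are close relatives that share partner proteins at the cell surface. CD9 (chromosome 12, 6199715 to 6238271, + strand) had 92.4, 166 and 147 CPM in MHCC97L, 196, 180 and 188 CPM in MHCC97L-Oxa and 190, 209 and 172 CPM in MHCC97L-Src. Both resistant lines lay above MHCC97L without overlap and overlapped each other, with log2 fold changes of 0.50 (SE 0.26) in MHCC97L-Src, 0.48 (SE 0.24) in MHCC97L-Oxa and 0.01 (SE 0.11) between them. With the correction, the differences of CD9 from MHCC97L were 0.32 and 0.30. CD81 (chromosome 11, 2376177 to 2397419, + strand) had 186, 331 and 349 CPM in MHCC97L, 376, 355 and 381 CPM in MHCC97L-Oxa and 452, 564 and 421 CPM in MHCC97L-Src. The lines were ordered without overlap, from MHCC97L through MHCC97L-Oxa to MHCC97L-Src. The log2 fold change was 0.73 (SE 0.29) in MHCC97L-Src and 0.36 (SE 0.26) in MHCC97L-Oxa against MHCC97L, and 0.37 (SE 0.12) between the resistant lines. With the correction for GC content and length, the differences from MHCC97L were 0.39 and 0.17.

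CD151, the partner of laminin-binding integrins, lies on chromosome 11 from 832843 to 839831 on the + strand, 2976 bases from TSPAN4. It had 195, 370 and 431 CPM in MHCC97L, 382, 369 and 393 CPM in MHCC97L-Oxa and 261, 353 and 246 CPM in MHCC97L-Src. MHCC97L spread so widely that it overlapped both resistant lines, while MHCC97L-Src lay below MHCC97L-Oxa with a log2 fold change of -0.42 (SE 0.14). Against MHCC97L the values were -0.21 (SE 0.32) in MHCC97L-Src and 0.20 (SE 0.29) in MHCC97L-Oxa. With the correction they became -0.71 and -0.14, so that the second changed its sign. CD151 shares 257 exon bases, 6.53% of its exon bases, with POLR2L on the opposite strand, which had between 2536 and 4899 counts per library. Whether strand was used in counting is not given in the sources used here, so the counts of CD151 are uncertain. TSPAN4 (842808 to 867116, + strand), a tetraspanin of migrasomes, had 44.7, 79.2 and 91.8 CPM in MHCC97L, 113, 109 and 113 CPM in MHCC97L-Oxa and 127, 178 and 118 CPM in MHCC97L-Src. These neighbors on the chromosome thus differed in their order of lines, since TSPAN4 was lowest in MHCC97L and highest in MHCC97L-Src without overlap. Its log2 fold change was 0.97 (SE 0.32) in MHCC97L-Src and 0.64 (SE 0.28) in MHCC97L-Oxa against MHCC97L, or 0.54 and 0.36 with the correction.

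TSPAN1, a tetraspanin of epithelial cells on chromosome 1 (46175073 to 46185958, + strand), was among the lowest members. It had 35, 47 and 40 counts in MHCC97L, 103, 126 and 115 counts in MHCC97L-Oxa and 112, 151 and 145 counts in MHCC97L-Src. These corresponded to 1.80, 2.74 and 2.23 CPM, to 5.70, 6.82 and 6.42 CPM and to 6.63, 9.85 and 7.95 CPM. The libraries of both resistant lines lay above those of MHCC97L and overlapped each other. The log2 fold change was 1.85 (SE 0.43) in MHCC97L-Src and 1.48 (SE 0.38) in MHCC97L-Oxa against MHCC97L, and 0.36 (SE 0.22) between the resistant lines. With the correction the first 2 values were 1.61 and 1.26.

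TSPAN15, the regulator of ADAM10, lies on chromosome 10 from 69451473 to 69507669 on the + strand. It had 23.1, 47.7 and 42.1 CPM in MHCC97L, 58.6, 65.0 and 67.5 CPM in MHCC97L-Oxa and 63.5, 74.2 and 61.0 CPM in MHCC97L-Src. Both resistant lines were above MHCC97L and overlapped each other, with log2 fold changes of 0.82 (SE 0.32) in MHCC97L-Src, 0.76 (SE 0.30) in MHCC97L-Oxa and 0.05 (SE 0.13) between them. With the correction the first 2 values were 0.40 and 0.46.

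TSPAN3 (chromosome 15, 77041404 to 77083984, - strand) had 293, 218 and 131 CPM in MHCC97L, 195, 153 and 152 CPM in MHCC97L-Oxa and 169, 108 and 206 CPM in MHCC97L-Src. All 3 lines overlapped, and the widest spread was within MHCC97L, where library 1 was the highest. The log2 fold change was -0.41 (SE 0.35) in MHCC97L-Src and -0.36 (SE 0.30) in MHCC97L-Oxa against MHCC97L, and -0.06 and -0.05 with the correction. TSPAN31 (chromosome 12, 57738013 to 57750211, + strand) had 7.32, 8.63 and 11.9 CPM in MHCC97L, 10.4, 9.04 and 12.8 CPM in MHCC97L-Oxa and 7.45, 8.41 and 7.51 CPM in MHCC97L-Src. Its MHCC97L-Src libraries lay below those of MHCC97L-Oxa (log2 fold change -0.47, SE 0.21), while both overlapped MHCC97L, with differences of -0.25 (SE 0.40) and 0.21 (SE 0.36), or -0.08 and 0.32 with the correction. TSPAN31 shares 1369 exon bases, 25.4% of its exon bases, with CDK4 on the opposite strand. CDK4 had 2554, 4361 and 5136 counts in MHCC97L, 4628, 4306 and 4620 counts in MHCC97L-Oxa and 5485, 6316 and 4838 counts in MHCC97L-Src. The counts of TSPAN31 are uncertain for the same reason as those of CD151. TSPAN3 shares 264 exon bases, 3.1% of its exon bases, with AC090181.1 on the opposite strand. CD81 shares 30, or 0.41%, with CD81-AS1. Neither of these opposite-strand genes is among the genes counted, and the same doubt applies.

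TSPAN8, a tetraspanin of gastrointestinal cancers on chromosome 12 (71125085 to 71441898, - strand), was near the floor. It had 7, 0 and 0 counts in MHCC97L, 21, 14 and 7 counts in MHCC97L-Oxa and 7, 0 and 7 counts in MHCC97L-Src. In CPM, the MHCC97L-Oxa libraries (1.16, 0.758 and 0.391) lay above those of MHCC97L (0.361, 0 and 0), although 1 library of each line had the same 7 counts. MHCC97L-Src overlapped both. The gene had too few counts to enter the fits of these comparisons. It entered 5 alternatives for MHCC97L-Oxa against MHCC97L, with log2 fold changes from 2.01 to 6.83, and was called in 1 of them, without MHCC97L library 1, where the remaining MHCC97L libraries were at 0 and the fitted 6.83 is no measure of size.

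**Figure D2:**
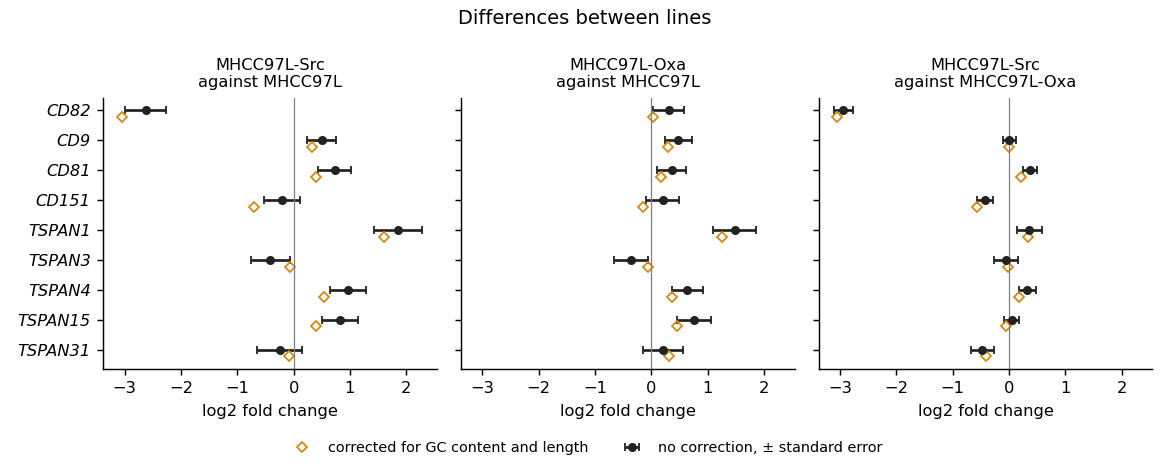
Log2 fold changes of 9 tetraspanins in the 3 comparisons between lines, with filled points and standard errors from edgeR and open diamonds after correction for GC content and length. CD82 lies at -2.63 and -2.94 in the comparisons with MHCC97L-Src and at 0.31 in MHCC97L-Oxa against MHCC97L, and TSPAN1 lies at 1.85 and 1.48 against MHCC97L.

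Counted without a test, 5 of the 9 members were higher in MHCC97L-Src than in MHCC97L with no overlap of libraries and 1 was lower, and 29.8% of all genes did not overlap in this comparison. In MHCC97L-Oxa 5 of the 9 were higher than in MHCC97L and none was lower, beside 28.1% of all genes. Between MHCC97L-Src and MHCC97L-Oxa, 2 were higher and 3 were lower, beside 26.7% of all genes. The median log2 fold change of the 9 members was 0.50, 0.36 and 0.01 in these comparisons, and that of all genes was -0.16, -0.19 and -0.02. The 5 members higher in each resistant line were CD9, CD81, TSPAN1, TSPAN4 and TSPAN15. The comparisons with MHCC97L share its 3 libraries. With the correction for GC content and length, the log2 fold changes in MHCC97L-Src against MHCC97L-Oxa were 0.01 (CD9), 0.22 (CD81), -0.57 (CD151) and 0.34 (TSPAN1). Those of TSPAN3, TSPAN4, TSPAN15 and TSPAN31 were -0.01, 0.18, -0.06 and -0.41.

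Levels were compared between genes only in FPKM, fragment counts scaled to transcript length and library size. Values are means ± SD of 3 libraries. In MHCC97L the order of mean FPKM was CD151 (187 ± 56.0), CD81 (166 ± 38.7), CD9 (68.4 ± 15.6), TSPAN3 (50.6 ± 20.7), TSPAN4 (28.8 ± 8.13), CD82 (14.5 ± 3.38), TSPAN31 (5.09 ± 1.46), TSPAN15 (2.22 ± 0.685) and TSPAN1 (0.745 ± 0.15), with TSPAN8 last. CD151 and CD81, CD9 and TSPAN3, and TSPAN3 and TSPAN4 overlapped across libraries. The FPKM of TSPAN15 was low for its counts. In MHCC97L it had a mean of 37.6 CPM, and its longest transcript in GENCODE has 1698 bases. CD82 had 38.0 CPM and a longest transcript of 2289 bases, but a far higher FPKM. The places of TSPAN15 and CD82 relative to each other are therefore uncertain. The cause was not tested. In MHCC97L-Oxa CD82 kept its sixth place at 17.7 ± 0.947 FPKM. In MHCC97L-Src it was the ninth of 10 at 2.03 ± 0.24 FPKM, where it overlapped TSPAN1 at 2.82 ± 0.698 FPKM. CD81, at 254 ± 20.7 FPKM, was above CD151, at 153 ± 19.5 FPKM, in MHCC97L-Src without overlap.

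The same was seen in shares of the summed FPKM of all 33 tetraspanins in the tables. CD82 made up 1.76% to 1.93% of it in MHCC97L, 1.83% to 1.94% in MHCC97L-Oxa and 0.184% to 0.221% in MHCC97L-Src. CD151 made up 20.8% to 27.0% in MHCC97L, 22.2% to 22.6% in MHCC97L-Oxa and 14.8% to 16.1% in MHCC97L-Src. The largest share in MHCC97L-Src was that of CD63, at 30.1% to 34.5%, against 21.3% to 23.4% in MHCC97L and 25.5% to 26.7% in MHCC97L-Oxa. CD82 and CD151 thus took smaller shares in every MHCC97L-Src library than in any other library, and CD63 a larger one. The share of TSPAN31 was likewise smaller (0.332% to 0.438%), and those of CD81 (25.2% to 25.6%) and TSPAN4 (5.18% to 5.79%) were larger. The summed FPKM was 603 to 868 in MHCC97L, 930 to 969 in MHCC97L-Oxa and 945 to 1090 in MHCC97L-Src. A smaller share therefore need not be a lower level, and the FPKM of CD151 overlapped between MHCC97L-Src and MHCC97L.

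**Figure D3:**
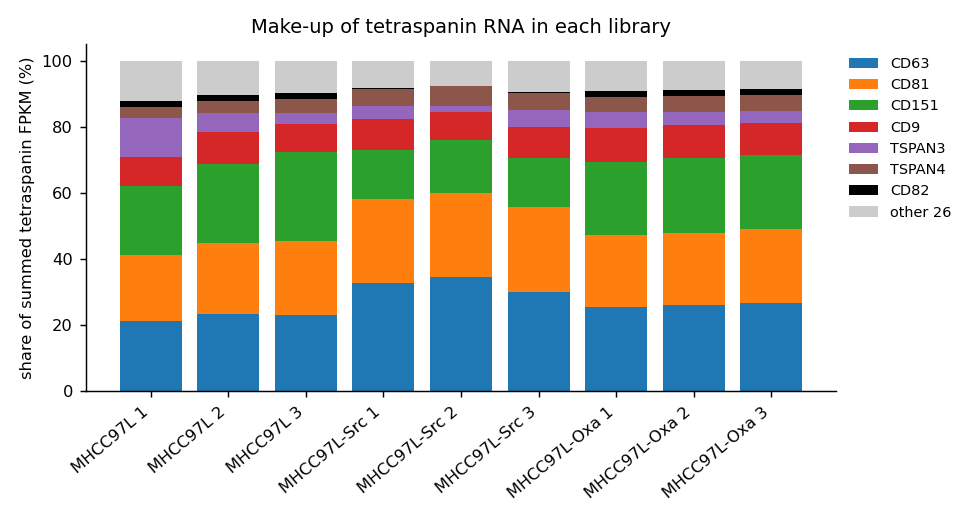
Share in percent of the summed FPKM of 33 tetraspanins taken by 7 of them and by the other 26 together, with 1 bar per library. The black CD82 segment is 1.76% or more in MHCC97L and MHCC97L-Oxa and at most 0.221% in MHCC97L-Src, where CD63 takes 30.1% or more.

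The genes whose level followed CD82 most closely were found by the root mean square difference in log2 CPM, each gene centered on its mean over the 9 libraries. Of 12231 genes, the closest were PMEPA1 (0.25), ID1 (0.26), NEDD9 (0.33), ADGRG1 (0.33) and SAMD11 (0.34), where the median gene was at 1.39. For PMEPA1, 1734, 2157 and 1746 reads were counted for MHCC97L, 3123, 3124 and 2850 for MHCC97L-Oxa and 413, 354 and 395 for MHCC97L-Src. For ID1, the libraries of MHCC97L held 4795, 7532 and 7366 counts, those of MHCC97L-Oxa 6373, 7189 and 7215, and those of MHCC97L-Src 1058, 1431 and 1277. For both genes, the MHCC97L-Src libraries were the lowest, as for CD82. The log2 fold changes of the 5 genes in MHCC97L-Src against MHCC97L-Oxa were between -2.86 (PMEPA1) and -2.22 (ADGRG1). The genes were chosen for their likeness to CD82 in these same libraries, so their low levels in MHCC97L-Src follow from the choice and support nothing. Of the other members with enough counts, the closest to CD82 were TSPAN31 at 1.15 (rank 592 of the 12231 genes) and CD151 at 1.16 (rank 672). They were closer than most genes but far from the 5 named. The farthest member was TSPAN1 at 1.87 (rank 11895).

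The 10 tested genes nearest to CD82 on chromosome 11, 5 on either side between 43880811 and 45883248, were set beside it. They were chosen after the values of CD82 had been seen. In MHCC97L-Src against MHCC97L-Oxa their log2 fold changes ran from -0.58 (CHST1) to 0.75 (PRDM11). Against MHCC97L they ran from -0.21 (ALKBH3) to 2.33 (C11orf96) in MHCC97L-Src and from -0.27 (PRDM11) to 2.66 (C11orf96) in MHCC97L-Oxa. None of the neighbors was as low as CD82 in either comparison with MHCC97L-Src. Few tested genes anywhere were, since CD82 ranked 202 of 12037 from the lowest against MHCC97L and 5 of 11994 against MHCC97L-Oxa. The nearest tested neighbors on either side, ALX4 and TP53I11, lay 254261 and 265540 bases from CD82. Whether CD82 changed together with its region was not tested.

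**Figure D4:**
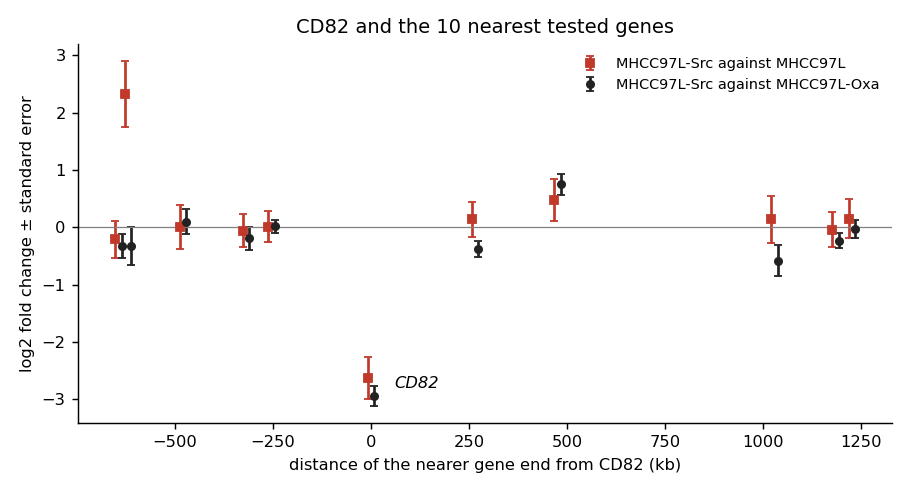
Log2 fold change with standard error of CD82 and the 10 nearest tested genes against their distance from CD82 in kilobases, for MHCC97L-Src against MHCC97L (squares) and against MHCC97L-Oxa (circles), with points moved slightly apart sideways. CD82 lies at -2.63 and -2.94, and the neighbors lie between -0.58 and 2.33.

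Of the 23 other tetraspanins in the tables, 11 had enough counts to be tested, and the remaining 12 had at most 16 counts in any library. By edgeR 0 of the 11 were called in MHCC97L-Src against MHCC97L, with 3 at an unadjusted p under 0.05 and 1 called by DESeq2, beside 2.13% of all genes called by edgeR, 3546 of 12037 genes at an unadjusted p under 0.05 and 2114 called by DESeq2. In MHCC97L-Oxa against MHCC97L 0 were called by edgeR, with 2 at an unadjusted p under 0.05, beside 0.953% of all genes called and 2708 of 12064 at an unadjusted p under 0.05. Between the resistant lines 0 were called, also with 2, beside 4.64% of all genes called and 2340 of 11994 at an unadjusted p under 0.05. DESeq2 called 0 in both of these comparisons. Their median log2 fold changes were 0.08, 0.10 and 0.06, and those of all genes -0.16, -0.19 and -0.02. CD63 had 272, 481 and 487 CPM in MHCC97L, 610, 606 and 643 CPM in MHCC97L-Oxa and 784, 1030 and 688 CPM in MHCC97L-Src. The lines did not overlap, but the difference missed the threshold of edgeR in each comparison, with log2 fold changes of 1.01 (SE 0.30, adjusted p = 0.102) and 0.59 (SE 0.25, adjusted p = 0.222) in MHCC97L-Src and MHCC97L-Oxa against MHCC97L and 0.42 (SE 0.14, adjusted p = 0.13) between the resistant lines. Without MHCC97L library 1 the first 2 were 0.82 (adjusted p = 0.0437) and 0.45 (adjusted p = 0.00773) and passed it. The first also passed without MHCC97L library 2 (1.18, adjusted p = 0.0269), by DESeq2 (1.11, adjusted p = 0.0248), with all 9 libraries in one edgeR fit (1.01, adjusted p = 0.0293) and with the correction for GC content and length (0.61, adjusted p = 0.0244). The second was 0.27 (adjusted p = 0.112) with the correction. The third passed with the correction (0.34, adjusted p = 0.0444) and without MHCC97L-Src library 3 (0.56, adjusted p = 0.0142).

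Proteins that tetraspanins bind were represented by 21 genes, of which 19 were tested. Between the resistant lines, edgeR called 4 of them lower and none higher in MHCC97L-Src, 10 were lower without overlap of libraries, and 18 of 19 log2 fold changes were below 0, with a median of -0.46. Of all genes, 4.64% were called and 26.7% did not overlap in either direction, 6224 of 11994 log2 fold changes were below 0, and the median was -0.02. These values are without the correction for GC content and length. With it, ADAM10 and PDCD6IP were above 0, both at 0.10, and the other partners were below 0. Of these, ITGA6 (-0.06), IGSF8 (-0.04), SDCBP (-0.03) and PTGFRN (-0.01) were nearly unchanged between the lines. The 4 called genes were at -1.01 (ITGB4), -0.76 (SCARB1), -0.68 (ITGA3) and -0.54 (ITGB1). Of the laminin-binding integrin chains, which pair with CD151, ITGB4 had 172, 170 and 171 CPM in MHCC97L-Oxa and 94.9, 108 and 78.1 CPM in MHCC97L-Src. It was lower in MHCC97L-Src by 0.87 on the log2 scale (SE 0.13, adjusted p = 0.00419). ITGA3 had 754, 770 and 801 CPM in MHCC97L-Oxa and 526, 604 and 468 CPM in MHCC97L-Src, lower by 0.55 (SE 0.11, adjusted p = 0.0243). ITGB1 had 60.4, 71.1 and 80.4 CPM in MHCC97L-Oxa and 44.5, 35.3 and 39.6 CPM in MHCC97L-Src, lower by 0.83 (SE 0.15, adjusted p = 0.0131). The 3 genes did not overlap between the resistant lines. In MHCC97L, ITGB4 had 51.9 to 86.2 CPM and ITGA3 had 325 to 567 CPM, while ITGB1 spread from 42.4 to 459 CPM. SCARB1, the high-density lipoprotein receptor, had 23706, 23287 and 23730 counts in MHCC97L-Oxa and 13443, 15096 and 11991 counts in MHCC97L-Src. It was lower in MHCC97L-Src by 0.68 (SE 0.14, adjusted p = 0.0207), and had 10629 to 18119 counts in MHCC97L. For all 4 genes the MHCC97L-Src libraries overlapped those of MHCC97L. The MHCC97L-Oxa libraries lay above those of MHCC97L for ITGB4, ITGA3 and SCARB1, and overlapped them for ITGB1.

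These calls were not equally stable. With all 9 libraries in one fit by edgeR, the adjusted p was 0.155 for ITGB4, 0.627 for ITGA3, 0.999 for ITGB1 and 0.516 for SCARB1. On leaving out 1 library, ITGB4 was called every time. ITGA3 and SCARB1 were not called without MHCC97L-Oxa library 1, 2 or 3 or without MHCC97L-Src library 1, with adjusted p up to 0.177 for ITGA3 and 0.136 for SCARB1. ITGB1 was not called without MHCC97L-Oxa library 2 or 3, with adjusted p of 0.0894 and 0.0912. The log2 fold changes stayed below 0 under all 16 alternatives for each gene, from -1.01 to -0.75 for ITGB4, -0.68 to -0.45 for ITGA3, -0.94 to -0.54 for ITGB1 and -0.85 to -0.54 for SCARB1.

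IGSF8, which CD9 and CD81 bind, was the only partner called in MHCC97L-Src against MHCC97L. Its counts were 562, 799 and 778 in MHCC97L, 1841, 1974 and 1813 in MHCC97L-Oxa and 1709, 2110 and 1766 in MHCC97L-Src. By edgeR it rose by 1.50 on the log2 scale in MHCC97L-Src (SE 0.28, adjusted p = 0.0368). In MHCC97L-Oxa the rise was 1.38 (SE 0.24, adjusted p = 0.0449). IGSF3, of the same family, had 56.9, 87.3 and 58.0 CPM in MHCC97L and 192, 174 and 158 CPM in MHCC97L-Oxa, and rose by 1.37 (SE 0.23, adjusted p = 0.0428). In MHCC97L-Src it had 125, 84.8 and 151 CPM, which overlapped MHCC97L. There the difference was 0.84 (SE 0.30, adjusted p = 0.125) and was not called. With the correction for GC content and length, IGSF8 differed by 1.01 in MHCC97L-Src and 1.05 in MHCC97L-Oxa, and IGSF3 by 0.80 and 1.35. No library of a resistant line overlapped MHCC97L in the 3 comparisons that were called. Each of the 3 calls was lost without MHCC97L library 3 and without any library of the resistant line, with adjusted p up to 0.177 for IGSF8 in MHCC97L-Src, 0.316 for IGSF8 in MHCC97L-Oxa and 0.27 for IGSF3. Of the 19 partners, 1 was called in MHCC97L-Src and 2 in MHCC97L-Oxa against MHCC97L, beside 2.13% and 0.953% of all genes. Their median log2 fold change was -0.31 and 0.15, and that of all genes was -0.16 and -0.19.

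**Figure D5:**
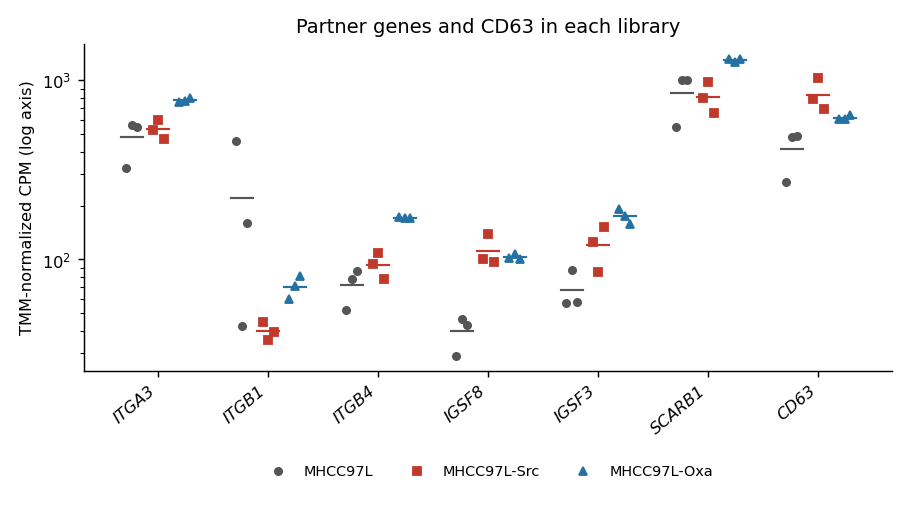
Levels of 6 partner genes and CD63 in TMM-normalized CPM on a log axis, with 1 point per library and bars at the mean of 3 libraries. ITGB4 lies at 170 to 172 CPM in MHCC97L-Oxa and at 78.1 to 108 CPM in MHCC97L-Src, and IGSF8 is below 50 CPM in MHCC97L only.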

How the data were processed

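RNA sequencing covered 3 cell lines with 3 libraries each. The authors deposited raw read counts per gene and FPKM values, normalized to length and library size, for 20030 genes. The submitters' processing notes name Trimmomatic 0.36, HISAT2 2.2.1.0 and the build GRCh38.p12, and the counting program is not given in the sources used here. The members and gene lists were chosen with earlier results of these data known. For each pair of lines, glmQLFTest of edgeR (the quasi-likelihood test) was fitted to the counts of their 6 libraries (filterByExpr, minimum count 10, TMM, Benjamini-Hochberg adjustment). The standard error was the log2 fold change over the square root of F. The labels do not say that libraries came from separate cultures, so p-values measure the spread between these libraries, which may be technical. GC content and length came from GENCODE release 29 (19343 genes) and were corrected by splines with 5 degrees of freedom. The partners and further tetraspanins named are CD63 and those with an adjusted p under 0.05. Scripts were tested on simulated counts. Alternatives were DESeq2, other filters, one fit of all libraries, a replicate block, limma-trend on log2 FPKM with a pseudocount of 1 or 0.1 and leaving out each library. They were run for CD63, the neighbors of CD82 and the genes of similar pattern after the data had been seen. Software was edgeR 4.0.16, DESeq2 1.42.0 and limma 3.58.1 in R 4.3.3, and pandas 2.3.3, NumPy 2.4.6 and matplotlib 3.10.9 in Python 3.11.15.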

Additional observations from a re-analysis of the deposited data

Results flagged for a closer look

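4 partner genes of the tetraspanins differed between the resistant lines by edgeR's test of that difference. The log2 fold change in MHCC97L-Src against MHCC97L-Oxa was -0.55 for ITGA3, -0.83 for ITGB1, -0.87 for ITGB4 and -0.68 for SCARB1. All 3 MHCC97L-Src libraries lay below all 3 MHCC97L-Oxa libraries for each gene. The cause was not tested.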

How the results depend on the processing

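All genes called in MHCC97L-Src against MHCC97L numbered 256, and 2114 by DESeq2, 702 unfiltered, 162 with at least 10 counts in every library, 988 with a replicate block, 1956 with all 9 libraries in one fit, 1276 corrected for GC content and length, 864 at an adjusted p under 0.1 and 2966 by unadjusted p under 0.05 and more than a 2-fold difference (unadjusted). In MHCC97L-Oxa against MHCC97L the 115 became 893 by DESeq2, 495 with all libraries, 1556 corrected, 609 corrected with the block, 252 and 256 by limma-trend with FPKM pseudocounts of 1 and 0.1, 320 at 0.1 and 1951 unadjusted. Between the resistant lines the 556 became 839 by DESeq2, 86 with all libraries, 1153 corrected and 949 at 0.1. In the same order of comparisons, the listed members called (1, 0 and 1) became 3, 1 and 1 by DESeq2, 3, 1 and 1 with all libraries and 4, 2 and 2 corrected. In the first they were 2 unfiltered, 2 at 0.1 and 2 unadjusted, in the second 1 unadjusted, and in the third 2 corrected with the block and 2 by limma-trend with either pseudocount. The other tetraspanins called (0, 0 and 0) became 1 by DESeq2, 1 with all libraries and 2 unadjusted in the first, 1 unadjusted in the second, and 1, 2 and 1 corrected. The partners called (1, 2 and 4) became 6 and 4 by DESeq2, 6, 4 and 0 with all libraries, 2 and 4 at 0.1 and 6, 8 and 0 unadjusted. In the first they were 2 unfiltered, 4 with the block and 0 corrected with the block, and in the second 0 with the block, 6 corrected and 4 by limma-trend with either pseudocount. Leaving out 1 library gave 22 to 3419, 2 to 2705 and 167 to 1617 for all genes, 0 to 2, 0 to 5 and 1 to 2 for the members, 0 to 1, 0 to 3 and 0 to 2 for the other tetraspanins and 0 to 8, 0 to 10 and 1 to 6 for the partners. The log2 fold change of CD82 ranged between -3.04 and -2.33 against MHCC97L and between -3.06 and -2.62 against MHCC97L-Oxa. Replicate numbers did not pair the libraries (mean correlation of same-numbered deviations -0.087, 0.027 and -0.106), and with the replicate block 988, 92 and 406 genes were called. The replicate block ended the calls of ITGA3 (adjusted p = 0.0525) and, in MHCC97L-Oxa against MHCC97L, of IGSF8 (0.0609) and IGSF3 (0.0554), and together with the correction it ended those of ITGB1 (0.0907) and of IGSF8 in MHCC97L-Src (0.0523). The causes were not tested.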

Other observations

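All counts of TSPAN8 were multiples of 7, at 7, 0 and 0 in MHCC97L, 21, 14 and 7 in MHCC97L-Oxa and 7, 0 and 7 in MHCC97L-Src. Among 12520 genes with counts in at least 5 libraries and at least 50 counts in all, it was the only 1 whose counts shared a common factor above 3. The cause was not tested.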
